A study of Rattus norvegicus with 4 samples.

Results

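The FoxO transcription factors and the ubiquitin ligases of muscle atrophy were followed in cultured rat heart muscle cells treated with carfilzomib, a drug that binds and irreversibly blocks the proteasome and is given against multiple myeloma. The 8 genes were Foxo1, Foxo3 and Foxo4, the ligase genes Trim63 (MuRF1), Trim55 (MuRF2) and Trim54 (MuRF3), and the F-box genes Fbxo32 (atrogin-1) and Fbxo30. They were chosen by gene symbol from the 18699 genes of the expression table, with earlier results of these data known. All 8 were found, and all 8 were among the 14519 genes that passed the filter on low counts. Wild-type ventricular myocytes were isolated from Sprague Dawley pups 1 to 3 days old and grown with 0.1 mM bromodeoxyuridine, which holds back dividing cells of other types. Of the 4 libraries, 2 came from vehicle-treated cells and 2 from cells exposed to 1 µM carfilzomib, all at 24 h. The labels leave unsaid whether replicate libraries stem from different cultures or animals, and the p-values below therefore reflect only the spread among these libraries, which may be technical.

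The libraries held between 18655499 and 18884362 estimated counts. All 10 cardiomyocyte markers were detected, among them Myh6 at a mean of 9820 CPM (counts scaled to library size) with vehicle, and all 10 were lower with carfilzomib. The summed level of these markers was 29166 to 29320 CPM with vehicle and 6880 to 7059 CPM with carfilzomib. The cultures also held markers of other cells. The 10 fibroblast markers summed to 27806 to 28379 CPM with vehicle and 14846 to 15574 CPM with carfilzomib, and all 10 were lower. The 6 smooth muscle markers, all lower, went from 3842 to 3985 CPM down to 1307 to 1351 CPM. Of 6 endothelial markers 1 was higher and 2 were lower, with sums of 61.9 to 62.6 CPM and 61.2 to 62.4 CPM. Of 7 macrophage markers 5 were tested and all 5 were lower, with sums of 40.7 to 44.6 CPM and 22.8 to 23.6 CPM. The 8 skeletal muscle markers summed to at most 4.63 CPM in any library. None of these markers was at 0 in all 4 libraries. The part of cell composition in the results below was not tested, and in these bulk libraries fewer cells of a type and less RNA per cell cannot be told apart.

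FoxO factors are transcription factors that the kinase AKT phosphorylates and keeps out of the nucleus when insulin or IGF1 is present. When that signal is low they enter the nucleus and switch on genes of protein breakdown, of which the ligases atrogin-1 and MuRF1 are the best known in wasting muscle and heart. Ubiquitin ligases mark chosen proteins with ubiquitin for the proteasome, the protease that carfilzomib blocks. Atrogin-1 and Fbxo30 are F-box proteins, the substrate-binding subunits of SCF ligases, while the MuRF proteins are RING-finger ligases that bind titin, the sarcomere or microtubules.

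The promoters of Trim63 and Trim54 are shown because both genes were higher with carfilzomib and only that of Trim63 holds the letters of a FoxO element. RefSeq promoter windows, which run from 250 bases before to 50 bases after the start of a gene in the build GRCr8, were matched by symbol for 5 of the 8 genes (Foxo1, Foxo4, Fbxo30, Trim63 and Trim54). The FoxO element was searched as GTAAACA on both strands, the E-box, a site of basic helix-loop-helix factors, as CANNTG. Capitals mark both in the windows at chr5:151816986-151817285 (plus strand, Trim63) and chr6:30978426-30978725 (minus strand, Trim54), printed 5′ to 3′ on the strand of the gene.
Trim63: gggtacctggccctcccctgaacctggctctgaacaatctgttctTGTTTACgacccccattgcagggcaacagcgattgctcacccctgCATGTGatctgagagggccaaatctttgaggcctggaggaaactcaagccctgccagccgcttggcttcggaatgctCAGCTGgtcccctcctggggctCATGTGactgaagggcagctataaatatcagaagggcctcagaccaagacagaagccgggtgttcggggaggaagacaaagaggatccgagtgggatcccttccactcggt
Trim54: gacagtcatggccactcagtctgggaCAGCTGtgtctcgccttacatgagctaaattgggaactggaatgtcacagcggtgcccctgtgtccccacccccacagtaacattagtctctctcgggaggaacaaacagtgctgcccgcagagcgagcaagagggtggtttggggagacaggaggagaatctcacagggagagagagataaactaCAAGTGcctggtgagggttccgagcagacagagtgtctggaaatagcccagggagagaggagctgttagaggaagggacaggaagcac
In Trim63 the FoxO element lies on the strand opposite to the gene, from -205 to -199 counted from the first transcribed base as 1, and 3 E-boxes follow it. Trim54 holds 2 E-boxes, Foxo4 holds 1, and no E-box letters stand in the Fbxo30 or Foxo1 windows. The windows of Trim54, Fbxo30, Foxo1 and Foxo4 hold no FoxO element, and Fbxo30 too was higher with carfilzomib. Of all 33469 promoter windows of this length 3.78% hold the FoxO element and 72.1% an E-box. Of the 12857 windows of genes tested here 2.33% and 63.5% do. A related element of insulin response, GTAAATA, was in none of the 5 windows, against 3.51% of all windows and 1.89% of those of genes tested. A form of the antioxidant response element, TGACNNNGC, was found 2 times in the window of Foxo1. It was in 12.1% of all windows and 14.1% of those of genes tested. The element TGATGNAA, bound by C/EBP and ATF factors, was in none of the 5, in 3.98% of all windows and in 2.06% of those of genes tested. A match of letters is a description and not a measured binding site.

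Carfilzomib was compared with vehicle, the contrast through which the study asks how the drug harms heart cells. Of the 8 genes 4 rose, 2 fell and 2 did not pass the test. The genes that rose were the F-box genes Fbxo30 and Fbxo32 and the RING ligase genes Trim54 and Trim63, and those that fell were Trim55 and Foxo1. Among all genes tested 60.7% passed, 30.6% higher and 30.1% lower, so 6 of 8 is not far from the share of all genes. The test was edgeR's quasi-likelihood F test, adjusted after Benjamini and Hochberg over all genes tested and called at 0.05. DESeq2 called 5 of the 8 genes, 4 higher and 1 lower, against 44.7% of all genes. The median log2 fold change was 0.29 over the 8 genes and 0.00 over all genes tested. The CPM of the 2 groups did not overlap for any of the 8 genes, which held for 79.9% of all genes.

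Among the MuRF genes Trim55 moved against the other two. Trim55 encodes MuRF2, which binds titin and microtubules and is tied to the assembly of sarcomeres. Trim55 stood at 197 and 206 CPM in the vehicle libraries and at 99.3 and 102.5 CPM in the carfilzomib libraries. Both treated libraries lay far below both vehicle libraries. The fall was 2.00-fold, a log2 fold change of -0.997 ± 0.05 (SE), with an edgeR adjusted p of 9.09e-11. Trim54 encodes MuRF3, a microtubule-associated relative. Its level was 38.0 and 37.9 CPM with vehicle and 67.3 and 69.3 CPM with carfilzomib. The replicates of each group lay close together and the groups well apart. Trim54 rose 1.80-fold, by a log2 fold change of 0.85 ± 0.06 (SE), with an edgeR adjusted p of 1.66e-08.

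Trim63 encodes MuRF1, the ligase that ubiquitinates thick filament proteins in wasting muscle. Trim63 was at 36.2 and 36.5 CPM with vehicle and at 50.5 and 46.6 CPM with carfilzomib. Both treated libraries were higher, with a wider gap between the treated replicates than between the vehicle replicates. Trim63 rose 1.33-fold (log2 fold change 0.42 ± 0.06, SE; edgeR adjusted p 4.57e-05). It is the only one of the 8 genes whose estimated count carried decimals, and only in carfilzomib replicate 2, where it was 878.66.

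**Figure D1:**
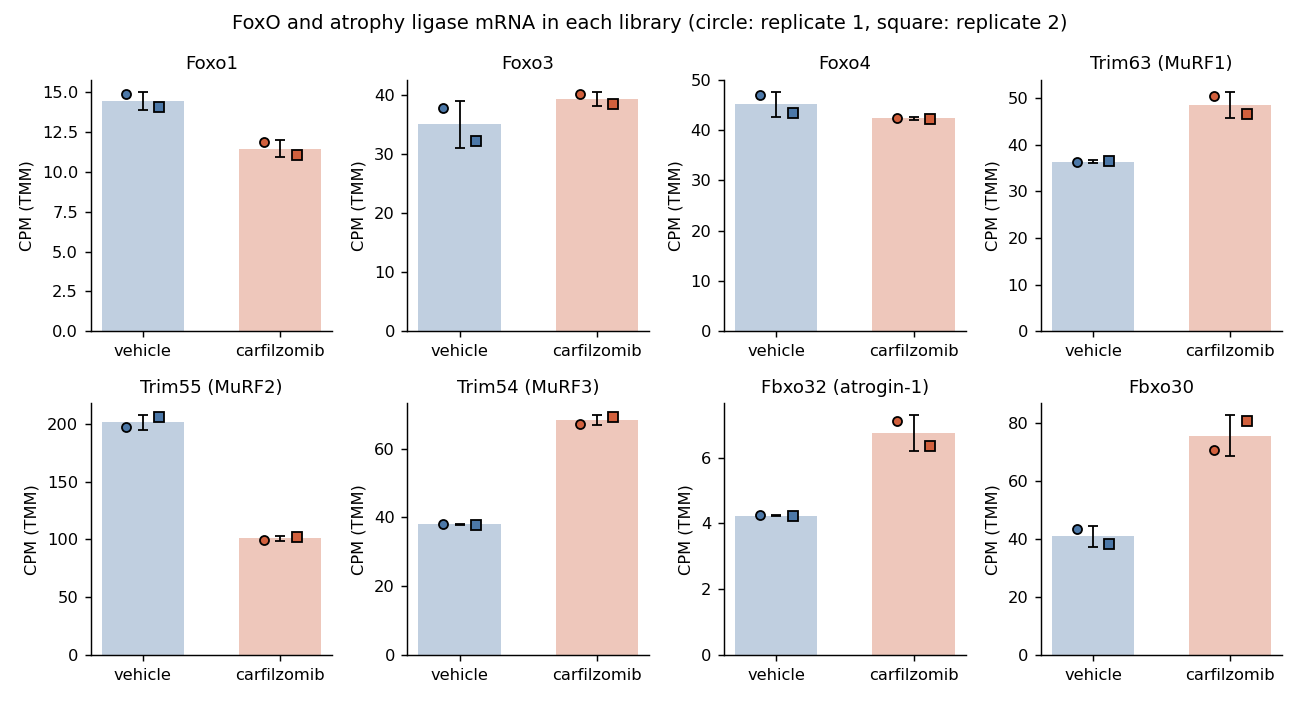
Level of each of the 8 genes in CPM (counts scaled to library size with TMM factors) in the 2 vehicle and 2 carfilzomib libraries, with circles for replicate 1, squares for replicate 2, bars for the group mean and error bars for the SD. Trim55 goes from 197 and 206 CPM to 99.3 and 102.5 CPM, while Trim54, Fbxo30, Fbxo32 and Trim63 are higher in both treated libraries than in both vehicle libraries.

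Levels of different genes were compared per gene length, in the deposited FPKM (fragments scaled to gene length and library size). With vehicle Trim55 was the most abundant of the 8 genes, at 85.5 ± 2.41 FPKM (mean ± SD, n = 2). Trim54 followed at 27.6 ± 0.11 and Trim63 at 20.04 ± 0.08 FPKM. With carfilzomib the first places were exchanged. Trim54 was at 50.7 ± 1.10 and Trim55 at 43.3 ± 1.33 FPKM, with Trim63 at 27.4 ± 1.56 FPKM. The FPKM of Trim54 was 0.330 and 0.315 times that of Trim55 in the vehicle libraries and 1.18 and 1.16 times in the carfilzomib libraries. Trim55 was thus above Trim54 in both vehicle libraries and below it in both treated ones.

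The sum of the 3 MuRF genes was 131.4 and 134.7 FPKM with vehicle and 120.7 and 122.0 FPKM with carfilzomib. Within that sum Trim55 took 63.8% and 64.7% with vehicle and 35.1% and 36.3% with carfilzomib. The share of Trim54 was 21.0% and 20.4% with vehicle and 41.3% and 42.2% with carfilzomib. Trim63 held 15.2% and 14.9% with vehicle and 23.6% and 21.5% with carfilzomib. For each of the 3 shares the groups did not overlap. An exact two-sided permutation test of 2 against 2 libraries gave p = 0.333 for each, the smallest it can give, so this test cannot reach the threshold.

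**Figure D2:**
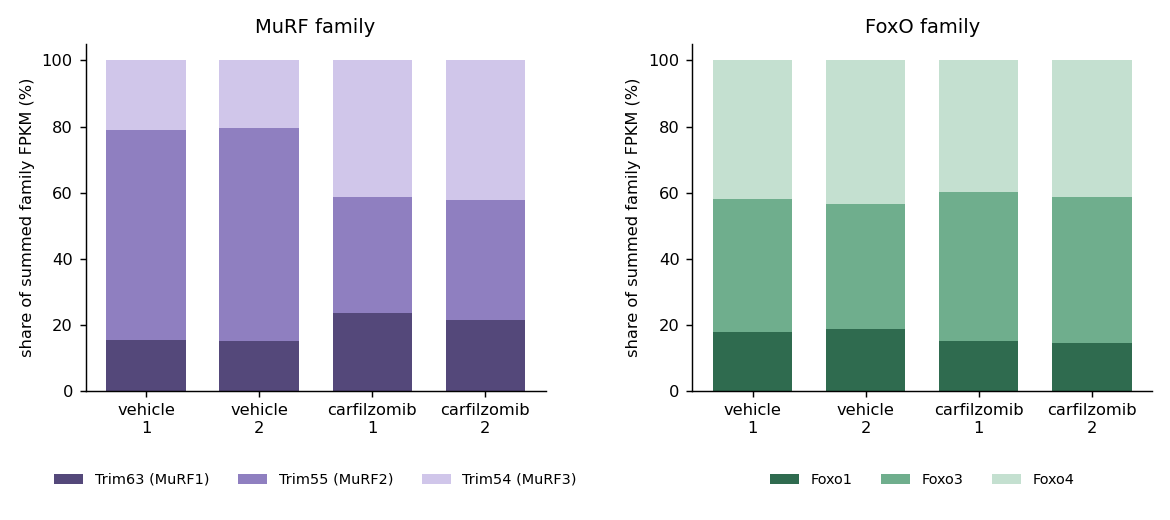
Share of each gene (%) in the summed FPKM of the MuRF family (left) and of Foxo1, Foxo3 and Foxo4 (right), 1 bar per library. Trim55 goes from 63.8% and 64.7% of the MuRF sum with vehicle to 35.1% and 36.3% with carfilzomib, while the FoxO shares move by at most 5.80 percentage points.

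Both F-box ligase genes rose. Fbxo32 encodes atrogin-1, whose known targets include calcineurin and the translation factor eIF3f. Its level was low, at 4.26 and 4.22 CPM with vehicle and 7.13 and 6.36 CPM with carfilzomib, from 79 and 78 counts and from 136 and 120 counts. The treated libraries were both higher. Fbxo32 rose 1.59-fold, by 0.67 ± 0.16 (SE) on the log2 scale with an edgeR adjusted p of 0.00169. DESeq2 gave an adjusted p of 0.0484. Fbxo30, a ligase subunit also called MUSA1 that BMP signals hold down in muscle, was at 43.6 and 38.4 CPM with vehicle and at 70.9 and 80.7 CPM with carfilzomib. Replicates differed more than for Trim54, and the groups still lay apart. Fbxo30 rose 1.85-fold, a log2 fold change of 0.89 ± 0.08 (SE) with an edgeR adjusted p of 4.10e-07. Per length Fbxo30 was the more abundant of the pair in all 4 libraries, with an FPKM 2.77 and 2.42 times that of Fbxo32 with vehicle and 2.76 and 3.47 times with carfilzomib. These ratios overlapped between the groups.

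Of the FoxO genes 1 fell and 2 did not pass. Foxo1, the factor most tied to insulin action in liver and muscle, was at 14.9 and 14.1 CPM with vehicle and at 11.8 and 11.1 CPM with carfilzomib. Both treated libraries were lower. Foxo1 fell by 0.34 ± 0.10 (SE) on the log2 scale, at an edgeR adjusted p of 0.0107. That call was lost with DESeq2 (adjusted p 0.14) and in the edgeR fits without vehicle replicate 1 (adjusted p 0.0566, log2 fold change -0.29) or carfilzomib replicate 2 (adjusted p 0.0826, log2 fold change -0.28).

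Foxo3, the factor that drives atrogin-1 in atrophying myotubes, was at 37.8 and 32.1 CPM with vehicle and at 40.1 and 38.5 CPM with carfilzomib. The higher vehicle library came close to the lower treated one. Foxo3 did not pass (log2 fold change 0.17 ± 0.08, SE; edgeR adjusted p 0.0673). This call turned on vehicle replicate 1. Without it the log2 fold change was 0.29 and the edgeR adjusted p 0.00655, and without vehicle replicate 2 they were 0.06 and 0.529. With library size alone in place of TMM factors the edgeR adjusted p of Foxo3 was 0.032, with a log2 fold change of 0.20.

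Foxo4, the X-linked member of the family, was at 46.9 and 43.4 CPM with vehicle and at 42.5 and 42.2 CPM with carfilzomib. The 2 groups lay next to each other. Foxo4 did not pass either (log2 fold change -0.09 ± 0.06, SE; edgeR adjusted p 0.224). Foxo6, the remaining FoxO gene and not one of the 8, had 9 and 17 counts with vehicle and 3 and 6 with carfilzomib and did not pass the low-count filter. The sum of Foxo1, Foxo3 and Foxo4 was 32.9 and 29.6 FPKM with vehicle and 31.7 and 31.0 FPKM with carfilzomib, and these ranges overlapped. Foxo3 held 40.1% and 37.7% of the sum with vehicle and 45.1% and 44.3% with carfilzomib. Foxo1 held 17.8% and 18.7% with vehicle and 15.1% and 14.4% with carfilzomib. Foxo4 held 42.1% and 43.6% with vehicle and 39.8% and 41.3% with carfilzomib. The permutation p was again 0.333 for each, the smallest possible.

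**Figure D3:**
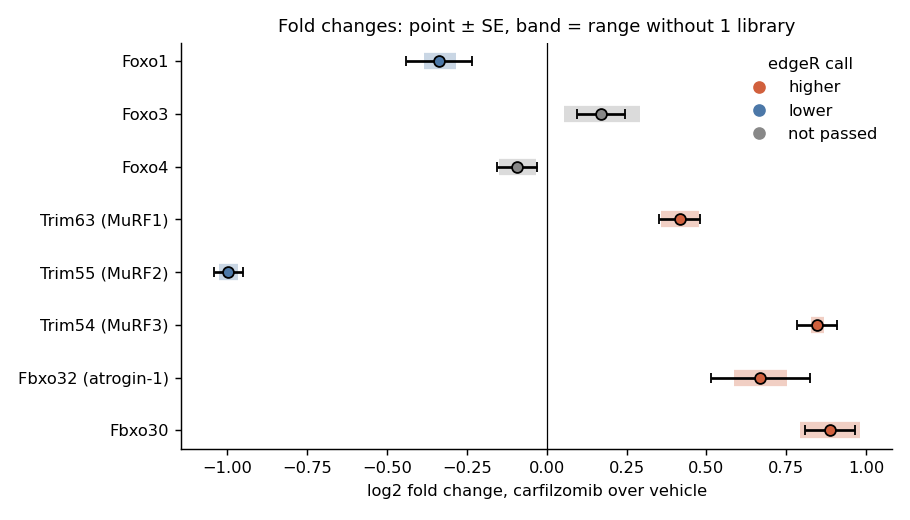
Log2 fold change of carfilzomib over vehicle for the 8 genes: points with SE bars from edgeR, and bands for the range when 1 of the 4 libraries is left out. Colours give the edgeR call at an adjusted p under 0.05. Trim55 sits at -0.997 and Fbxo30 at 0.89, and the band of Foxo3 runs from 0.06 to 0.29.

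Below the MuRF genes the order per length with vehicle was Foxo4 (13.4 ± 0.68 FPKM), Foxo3 (12.2 ± 1.44), Fbxo30 (10.8 ± 1.11), Foxo1 (5.70 ± 0.23) and Fbxo32 (4.17 ± 0.03). The values of Foxo4 and Foxo3 overlapped, as did those of Foxo3 and Fbxo30. With carfilzomib the order was Fbxo30 (21.0 ± 1.77 FPKM), Foxo3 (14.0 ± 0.41), Foxo4 (12.7 ± 0.11), Fbxo32 (6.79 ± 0.54) and Foxo1 (4.62 ± 0.22), and no neighbours among the 8 genes overlapped. Fbxo30 thus passed both Foxo3 and Foxo4, and Fbxo32 passed Foxo1. With vehicle the FPKM of Trim55 was at percentile 92.9 of all genes tested and that of Fbxo32 at percentile 32.0.

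Set among all genes by absolute log2 fold change, Trim55 was at percentile 88.2, Fbxo30 at 85.3, Trim54 at 84.0 and Fbxo32 at 76.9. Trim63 was at percentile 58.2, Foxo1 at 49.98, Foxo3 at 27.9 and Foxo4 at 15.8. The authors' deposited table, which lists 6063 genes with a q-value up to 0.0499, holds 4 of the 8 genes. In the authors' deposited table the log2 fold changes are -0.99 for Trim55, 0.85 for Trim54, 0.89 for Fbxo30 and 0.42 for Trim63, with a q-value of 9.70e-04 for Trim63. Fbxo32, Foxo1, Foxo3 and Foxo4 are not among the genes the authors' deposited table lists.

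**Figure D4:**
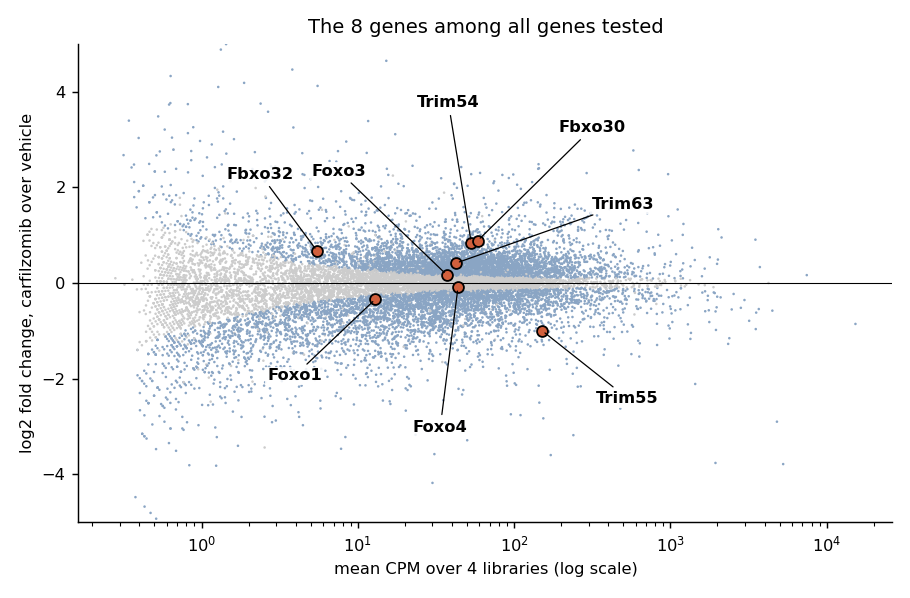
Log2 fold change of carfilzomib over vehicle against mean CPM (log axis) for the genes tested, with blue points for genes called by edgeR, grey for the others and red for the 8 genes; 9 genes lie outside the vertical axis. Trim55 has the highest mean CPM of the 8 genes, 151, and the largest fall among them, and Fbxo32 has the lowest mean CPM, 5.49.

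The genes whose profiles over the 4 libraries were nearest to those of Fbxo32, Trim63 and Foxo3 were found by the Euclidean distance between log2 CPM, each gene centred on its own mean. Nearest to Fbxo32 were Gem (distance 0.0217), Ppil1 (0.032) and Adprm (0.0423). Nearest to Trim63 were Noc2l (0.0192), Dtx3 (0.0221) and Nat9 (0.0288), and nearest to Foxo3 were Gprc5b (0.0101), Zfp407 (0.0278) and Sptssa (0.032). With 4 libraries many genes lie close: 563 of 9616 genes were within 0.2 of Fbxo32, and 1633 and 1473 of 9615 within 0.2 of Trim63 and Foxo3.

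Genes around the 8 were followed in lists, chosen with earlier results of these data known and counted with the same edgeR calls. Upstream of FoxO, 32 genes of insulin, IGF1 and AKT signalling moved both ways, with 10 higher, 11 lower and 11 not passed. These shares, 31.2% higher and 34.4% lower, were near the 30.6% and 30.1% of all genes tested. The median log2 fold change was 0.00. The growth factor genes Igf1 and Igf2 had log2 fold changes of -0.87 and -0.71, both lower. The insulin receptor substrates Irs1 and Irs2, which pass the signal from the receptors, were lower too, at -0.50 and -0.66. Akt1, the kinase gene itself, fell from 357 to 258 CPM (means, n = 2), a log2 fold change of -0.47 ± 0.04 (SE). Rptor and Tsc2, of the mTOR branch, rose by 0.69 and 0.60. The receptors Igf1r and Insr, and Akt2 and the related kinase gene Sgk1, did not pass, with log2 fold changes of -0.03, 0.10, -0.01 and 0.01, and the sign of each changed under at least 1 alternative. Insr passed in edgeR without vehicle replicate 1 (adjusted p 0.0354, log2 fold change 0.22). Igf1, Igf2, Igf1r, Irs1, Akt1 and Akt2 have estimated counts with decimals (split reads), so reads may have been shared out between genes.

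Of 28 tested modifiers and partners of FoxO proteins 15 rose, 7 fell and 6 did not pass. Their median log2 fold change was 0.16, and this list was chosen with earlier results known. Beside these counts, 30.6% of all genes tested rose and 30.1% fell. Mapk9, which encodes the stress kinase JNK2, rose by 0.81 on the log2 scale. Xpo1, the export receptor that carries FoxO out of the nucleus, rose by 0.52. Cdk2, a cell cycle kinase that phosphorylates FoxO1, fell by 0.71, and Foxk2, a forkhead relative, by 0.49. Prkaa2, the muscle form of the AMPK catalytic subunit, with split reads, fell by 0.48. Ppargc1a, the coactivator PGC-1alpha, with split reads, had -0.32, which did not pass with DESeq2 (adjusted p 0.0511) or in edgeR without carfilzomib replicate 2 (adjusted p 0.0588, log2 fold change -0.24).

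Of 32 genes known as FoxO targets in muscle and other tissues 19 rose, 3 fell and 10 did not pass. The median log2 fold change of these targets was 0.32. Of the list 59.4% rose, against 30.6% of all genes tested. The list was chosen with earlier results of these data known, and many of these genes also answer to other regulators. Gabarapl1, an autophagosome membrane protein, rose by 1.73 and the mitophagy receptor Bnip3 by 1.30. Gadd45a, a stress gene induced in atrophy, rose from 54.0 to 81.7 CPM (means, n = 2), by 0.60 ± 0.06 (SE). The antioxidant genes Cat, with split reads, and Sod2 rose by 1.09 and 1.08, the lysosomal protease gene Ctsl by 0.78 and the autophagy kinase gene Ulk1 by 0.64; these 4 were named after their values were seen. In the other direction Eif4ebp1, a brake on translation, fell by 1.23 and Irs2, given above, by 0.66. Prdx3, also an antioxidant gene and named after its value was seen, was lower at -0.18 (edgeR adjusted p 0.00512). Pdk4, a kinase that spares glucose, and Txnip, an inhibitor of thioredoxin, did not pass, with 0.25 and -0.03.

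The core of the SCF ligases into which atrogin-1 and Fbxo30 fit made a list of 18 genes together with E2 enzymes. That list also holds Nedd8, Ube2m, Uba3, Nae1 and Cand1. Of these 16 rose, 1 fell and 1 did not pass, where 30.6% of all genes tested rose. This list too was chosen with earlier results known. The list's median log2 fold change was 0.37. Skp1, the adaptor that binds the F-box, rose from 306 to 552 CPM, the scaffold Cul1 from 126 to 179 CPM and the RING subunit Rbx1 from 76.4 to 129 CPM (means, n = 2). Their log2 fold changes were 0.85 ± 0.04, 0.51 ± 0.05 and 0.75 ± 0.05 (SE), and Skp1 has split reads. Ube2d1, an E2 enzyme, was the exception at -0.31. Its call was lost in edgeR without vehicle replicate 2 (adjusted p 0.0573, log2 fold change -0.28) and without carfilzomib replicate 2 (adjusted p 0.124, log2 fold change -0.18).

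Among 23 other ligase genes of atrophy and muscle 11 rose, 5 fell and 7 did not pass. These were shares of 47.8% higher and 21.7% lower, beside 30.6% and 30.1% of all genes tested. The median over the list was 0.28 on the log2 scale, or 0.12 without vehicle replicate 2. Rnf207, a cardiac RING ligase gene with split reads, rose by 1.46 and Mdm2, the ligase of p53, by 1.22. Trim72, the membrane repair protein MG53 and a TRIM relative of the MuRF genes, went from 56.9 to 3.13 CPM, a log2 fold change of -4.18 ± 0.10 (SE). Asb2, a muscle ligase subunit gene with split reads, went from 76.8 to 9.88 CPM, a log2 fold change of -2.96 ± 0.07 (SE). Fbxo40, another muscle F-box gene and named after its value was seen, rose by 0.84.

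The list of ligase substrates and of partners of the titin kinase held 25 tested genes, of which 5 rose, 16 fell and 4 did not pass. Its median log2 fold change was -0.45, and it was -0.81 without carfilzomib replicate 2. For comparison, 30.6% of all genes tested rose and 30.1% fell. Ttn, which encodes the giant sarcomere protein that MuRF1 and MuRF2 bind, fell from 735 to 400 CPM (means, n = 2), by 0.88 ± 0.06 (SE) on the log2 scale. Srf, a transcription factor of contractile genes that MuRF2 can bind, fell by 1.19. Myh6 and Myh7, the myosin heavy chain genes with split reads, had log2 fold changes of -3.79 and -3.76, both lower. Nbr1 and Sqstm1, autophagy receptors that link the titin kinase to MuRF2, rose by 0.92 and 2.28. Des, the intermediate filament protein desmin, rose by 0.95. The cardiomyocyte markers given above include Myh6, Myh7 and 4 further genes of this list.

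**Figure D5:**
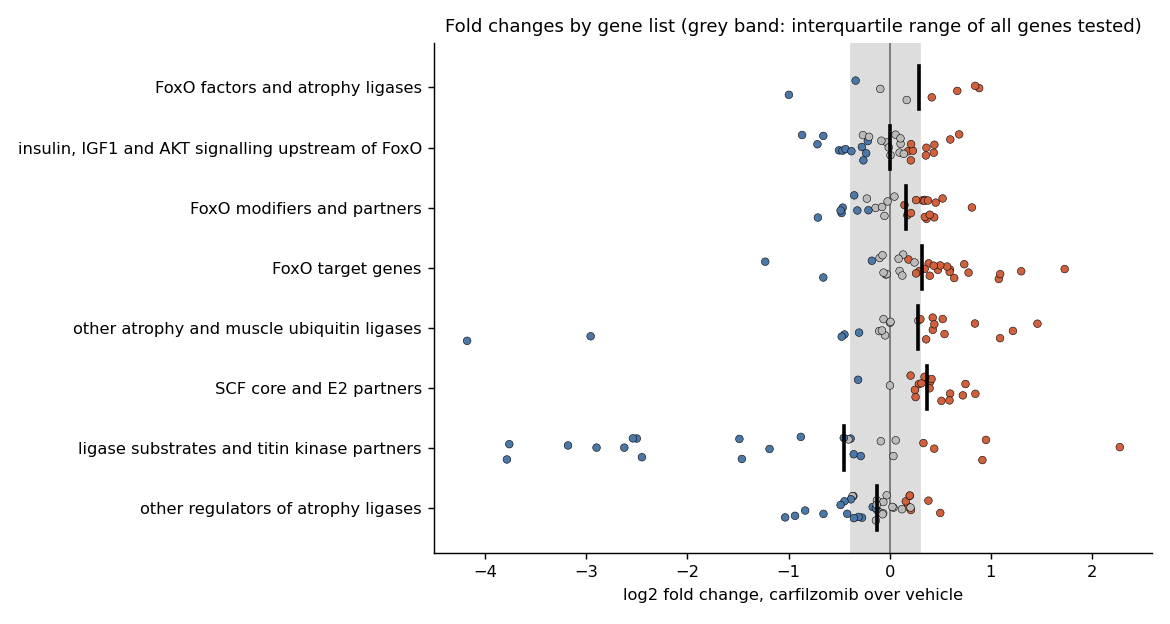
Log2 fold change of carfilzomib over vehicle for the tested genes of each list, with red for higher, blue for lower and grey for not passed by edgeR, black bars for list medians and a grey band for the interquartile range of all genes tested. Of the SCF core and E2 list 16 of 18 genes are higher, and of the list of substrates and titin kinase partners 16 of 25 are lower. Among all genes tested 30.6% are higher and 30.1% lower.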

How the data were processed

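The expression table deposited by the authors holds raw estimated counts. Values of about 29% of genes in a library are not whole (by more than 1e-06). They also deposited FPKM and TPM, and group means of each, per the file headers; the deposited FPKM served only for levels per gene length, and TPM and the means were not used. The authors' own DESeq2 comparison was deposited as log2 fold change, p-value and q-value, per the file headers. The submitters' processing notes name the build Rnor_6.0, featureCounts 1.6.0, HISAT, Bowtie2, cutadapt 2.0, FastQC 0.11.8, R 3.3.2 and DESeq2. Roles, order and the use of strand: not given in the sources used here. Control columns were matched to vehicle samples by replicate number, vehicle being the only control in the labels.

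Counts were rounded and tested with edgeR 4.0.16 in R 4.3.3 (filterByExpr with a minimum count of 10 and total of 15, TMM factors, robust quasi-likelihood test over 2 vehicle and 2 carfilzomib libraries, Benjamini-Hochberg threshold 0.05). SE is the size of the log2 fold change over the root of its F statistic. Replicates differed by more than sampling noise (chi-square per degree of freedom 3.43 and 3.08), so they stayed separate. The scripts were tested on simulated data. Alternatives were DESeq2 1.42.0, limma-voom (limma 3.58.1), RLE factors, library size alone, other low-count filters, a replicate block and leaving out each library.

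The 8 genes and the lists were chosen with earlier results of these data known. Of 25 entries of the list of other ligases, 2 were not matched, and Foxo6, Myod1, Myog and Mstn did not pass the filter. Named genes are the 8, a set of fixed genes, and from each list the 2 called genes with the largest rise and the 2 with the largest fall at a mean of at least 10 CPM. Of the fixed genes 2 are not reported here. The 3 nearest profiles were taken among genes with a full symbol at a mean of at least 10 CPM.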

Additional observations from a re-analysis of the deposited data

How the results depend on the processing

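Under the 11 alternatives Trim55, Trim54, Trim63, Fbxo30 and Fbxo32 kept their direction and stayed past the threshold, and Foxo4 kept its sign and did not pass. The call of Foxo1 was lost with DESeq2 (log2 fold change -0.34, adjusted p 0.14). When 1 library was left out its log2 fold change ran from -0.38 to -0.28, that of Foxo3 from 0.056 to 0.29. Foxo3 passed with library size alone (0.20). The number of genes called over all genes ran from 7360 to 7974 with 1 library left out, 8812 with all 4, and 6489 with DESeq2. With CPM the carfilzomib-minus-vehicle difference in MuRF share was 9.10 percentage points for Trim63, -26.7 for Trim55 and 17.6 for Trim54. With FPKM, which unlike CPM is divided by length, the differences were 7.50, -28.6 and 21.1 percentage points in that order. Signs turned for 5 genes that did not pass with all 4 libraries, of which Insr passed without vehicle replicate 1 (edgeR adjusted p 0.0354). With library size alone Akt2 was at 0.025, Igf1r at 0.0041 and Txnip at 0.0049 on the log2 scale. With 1 library left out Akt2 ran from -0.026 to 0.011, Insr from -0.0083 to 0.22 and Sgk1 from -0.043 to 0.064. Library size alone shifted the median of all genes to 0.04. The replicate numbers are shared by label only: deviations of same-numbered libraries correlated at -0.03 over 14519 genes, and the fit with the replicate block called 8229 genes and changed no call among the 8, while Smad1 did not pass under it. The low counts of Fbxo32, from 78 to 136 per library, limit its precision (SE 0.16).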

Other observations

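Regulators of the atrophy ligases other than FoxO were taken as a further list, of which 35 genes were tested. Of these 7 rose, 14 fell and 14 did not pass with edgeR, and the median log2 fold change was -0.13. The share of the list that passed was near the 60.7% of all genes tested. Of all genes tested 30.6% rose and 30.1% fell. The BMP ligand genes Bmp7 and Bmp4 fell by 0.94 and 0.84 on the log2 scale, Bmp4 with split reads. Other genes of BMP signalling on the list, named after their values were seen, moved less and both ways. The calls of Bmpr2, Smad1, Bmpr1a and Smad5 turned on the setting. Smad7 and Fst, also on the list, were lower at -0.27 and -0.42. Bmpr2, a receptor gene, was at 0.16 (edgeR adjusted p 0.00791, and 0.0593 and 0.0929 without replicate 2 of vehicle or of carfilzomib, at 0.11 and 0.14). Smad1, a split-read gene, was at -0.17 (edgeR adjusted p 0.0299, 0.141 with DESeq2, 0.0559 with the replicate block and 0.0752 with library size alone). Without vehicle replicate 1, vehicle replicate 2 or carfilzomib replicate 2 Smad1 was at -0.16, -0.18 and -0.11 and did not pass. Bmpr1a, Smad4 and Smad5 did not pass with all 4 libraries, at -0.07, -0.06 and 0.12. Bmpr1a passed without vehicle replicate 2 (-0.13, adjusted p 0.0426) and Smad5 without carfilzomib replicate 2 (0.21, adjusted p 0.0272). Klf15, a target of glucocorticoids and an inducer of atrogin-1, rose from 12.5 to 17.7 CPM (means, n = 2), a log2 fold change of 0.50 ± 0.10 (SE). Mef2d, a muscle transcription factor gene with split reads, rose by 0.38. Myog, the myogenic factor that induces both ligases after denervation of skeletal muscle, did not pass the low-count filter. Markers of fibroblasts, cardiomyocytes, smooth muscle and macrophages were lower in the same carfilzomib libraries, with medians of -0.89, -1.23, -1.58 and -1.11. The part of these cell types in the values above was not tested.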
